A study of Mus musculus with 5 samples.

Results

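The genes described here are 9 members of the metalloproteinase system that were found in cells of the mouse lung after bleomycin injury: the secreted matrix metalloproteinases *Mmp8*, *Mmp9*, *Mmp12* and *Mmp19*, the membrane-type metalloproteinase *Mmp14*, the membrane-anchored protease *Adam8*, and the tissue inhibitors of metalloproteinases *Timp1*, *Timp2* and *Timp3*. They were taken from the feature list by symbol, and all 9 were among its 28693 features, none of them being used to sort the cells into types. The study as a whole used adult mice of both sexes, and the sex of the animals sequenced was not given. Single-cell RNA sequencing with a 3′ tag kit was performed on lung cells of *Ms4a3-CreER;R26-tdT* mice on a mixed genetic background. In these mice tamoxifen-inducible Cre is expressed from *Ms4a3*, a gene of granulocyte and monocyte progenitors, and switches on the red reporter tdT in those cells and their progeny. All 5 libraries carried this genotype. The sham library came from lungs given PBS, and the other 4 came from lungs taken 3, 7, 14 and 28 days after intratracheal bleomycin, with 1 library per time point and the number of animals behind each not given. No time difference could therefore be tested, and the intervals on levels cover counting error only.

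The libraries held 8971 to 12688 barcodes and 89769386 to 167506186 UMIs (unique molecular identifiers, each counting a captured transcript). The study's limits on genes, UMIs and mitochondrial UMIs left 44772 of 52800 barcodes. The day 7 library stood apart because its lowest barcode had 4624 UMIs, against 500 to 502 in the others, and 313 barcode sequences occurred in more than 1 library. Cells were sorted into types by marker genes, and 35721 cells (79.8%) fell into 1 gate. Of the 86 markers, 81 were highest in their own gate, which follows largely from gating on them and does not test the naming. Alveolar macrophages (AMs, with *Siglecf* and *Car4*) numbered 5433 in sham and 582, 1278, 1147 and 2219 at days 3, 7, 14 and 28. Macrophages with the complement genes *C1qa*, *C1qb* and *C1qc* (C1q macrophages) numbered 52 in sham and 1164, 2073, 1847 and 2235 in the bleomycin libraries. The neutrophil gate (*S100a8*, *S100a9*, *Retnlg*) held 1080, 726, 86, 755 and 441 cells in the same order. The lowest barcode of day 7 lay above the median neutrophil depth of the other libraries (2203 to 3394.5 UMIs). Its neutrophil count therefore cannot be set beside theirs. Another 455 cells held the markers of both macrophage gates, were kept as a gate of their own and count among the 35721. Although the labels name immune cells, 38 to 100 fibroblasts, 21 to 111 endothelial cells and 14 to 298 epithelial cells per library passed their gates, so the members were followed in these cells as well.

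Matrix metalloproteinases are zinc enzymes made as inactive precursors that cut collagens, elastin and other matrix proteins once activated, and they also release growth factors and shed proteins from the cell surface. The TIMP proteins bind to the active site and block it. In the injured lung the balance of both is thought to shape the breakdown and deposition of matrix, although transcripts such as those counted here do not show how much active enzyme is present.

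The genes lie on 7 chromosomes of the GRCm38 assembly in the GENCODE vM21 annotation. *Mmp8* (9:7558456-7568485) and *Mmp12* (9:7344381-7369499) share chromosome 9, *Mmp19* (10:128790910-128800824) and *Timp3* (10:86300372-86349506) share chromosome 10, and all 4 are on the plus strand. The remaining plus-strand genes are *Mmp9* (2:164940780-164955850), *Mmp14* (14:54431612-54445364) and *Timp1* (X:20870166-20874735), while *Adam8* (7:139978932-139992562) and *Timp2* (11:118301069-118355740) are on the minus strand. The RefSeq promoter table for GRCm38.p6 held 8 starts of 7 members and none of *Mmp9* or *Mmp19*, which were therefore not searched. The 250 bases before the start are shown for *Mmp12*, whose level in macrophages differed widely between the libraries, at both of its starts, and for *Timp1*, whose level in fibroblasts did. All 3 are on the plus strand, and capitals mark the AP-1 motif TGANTCA, which reads the same on both strands.
*Mmp12*, first start, chr9:7344147-7344396: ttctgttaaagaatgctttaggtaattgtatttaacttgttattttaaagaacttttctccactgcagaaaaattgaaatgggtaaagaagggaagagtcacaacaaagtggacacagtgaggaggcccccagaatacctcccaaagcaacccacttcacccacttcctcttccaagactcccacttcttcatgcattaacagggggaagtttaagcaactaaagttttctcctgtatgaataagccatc
*Mmp12*, second start, chr9:7347124-7347373, inside the gene: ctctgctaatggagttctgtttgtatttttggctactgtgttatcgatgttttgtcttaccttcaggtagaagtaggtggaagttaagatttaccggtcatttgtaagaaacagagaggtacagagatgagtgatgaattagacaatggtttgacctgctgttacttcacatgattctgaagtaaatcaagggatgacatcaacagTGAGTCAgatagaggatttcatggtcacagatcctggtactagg
*Timp1*, chrX:20869916-20870165: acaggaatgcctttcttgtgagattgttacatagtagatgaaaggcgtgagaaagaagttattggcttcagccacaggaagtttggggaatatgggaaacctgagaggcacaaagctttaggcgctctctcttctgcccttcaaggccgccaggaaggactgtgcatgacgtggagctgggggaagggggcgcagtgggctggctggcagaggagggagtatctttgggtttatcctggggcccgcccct
The motif was found at the second *Mmp12* start, with its first base 44 bases before the start, and in no other of the 8 windows. Of all 32851 promoters of this length in the table, 6.75% held it. TATAAA on either strand was found in 12.4% of all promoters and in none of these 8 windows.

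Each member had its highest median level over the libraries in 1 of 3 kinds of cells. *Mmp8*, *Mmp9* and *Adam8* were highest in neutrophils, *Mmp12* and *Mmp19* in macrophage gates, and *Mmp14*, *Timp1*, *Timp2* and *Timp3* in fibroblasts. The range of the highest gate over the libraries did not overlap that of the next gate for *Mmp8*, *Mmp9*, *Timp1* and *Timp2*, and did for *Mmp12*, *Mmp14*, *Mmp19*, *Adam8* and *Timp3*. Ranked by the share of cells with a UMI at 2000 UMIs per cell, *Timp3* was highest in endothelial cells, and with stricter gates *Mmp19* was highest in AMs. The level of a gene is its CPM (counts-per-million), its share of the UMIs summed over all cells of a gate in a library. Since 3′ tags are not scaled for how well each gene is captured, CPM is compared here between cell types for 1 gene and not between genes. B cells were taken as the comparison for free RNA, and a level counts as above background where its 95% interval lies above that of the B cells of the same library and, at 2000 UMIs per cell, the share of cells with a UMI is also higher. Both measures are relative to the depth of the cells, which differed between gates.

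**Figure D1:**
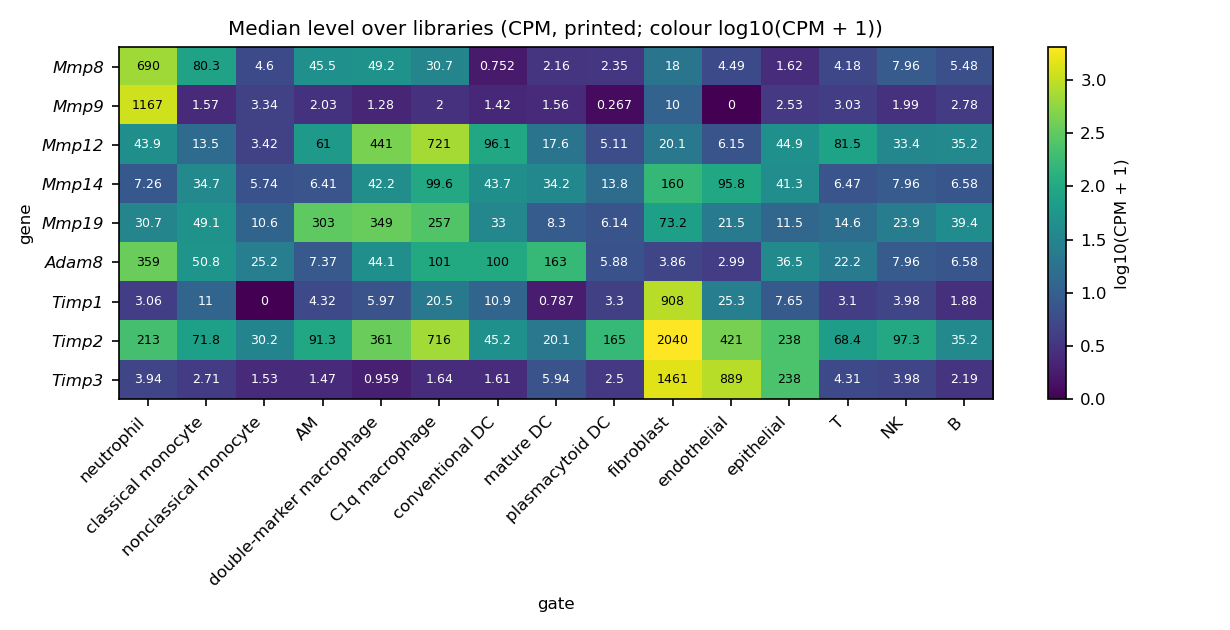
Median CPM of each member over the libraries in each gate with at least 20 cells, printed in each cell and as colour (log10 of CPM + 1). *Mmp8*, *Mmp9* and *Adam8* peak in the neutrophil column, *Mmp12* and *Mmp19* in macrophage columns and the inhibitors in the fibroblast column.

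*Mmp8*, the neutrophil collagenase stored in specific granules, and *Mmp9*, the gelatinase of tertiary granules, were both many times higher in neutrophils than in macrophages. *Mmp9* was at 1283 CPM in sham neutrophils and at 922, 622, 1453 and 1167 CPM at days 3, 7, 14 and 28. In the same libraries AMs held 2.03, 1.38, 2.38, 2.42 and 0.802 CPM and B cells between 0.469 and 5.48 CPM. The neutrophil levels thus did not overlap those of any AM library, and between 84.6% and 94.4% of neutrophils had an *Mmp9* UMI. The gate with the next highest median, fibroblasts, had a median of 10.0 CPM and reached 21.5 CPM. These levels came from 2 to 10 UMIs per library, of which 44.4% to 100% came from a single cell. In the C1q gate, sham stood out with 23.8 CPM from 19 UMIs, 57.9% of them in 1 cell, against 1.04 to 2.17 CPM in the bleomycin libraries.

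*Mmp8* was at 690 CPM in sham neutrophils (95% interval 661 to 720), at 555, 876 and 642 CPM at days 3, 7 and 14, and at 2318 CPM at day 28 (2229 to 2410). In these summed levels day 28 was far from the others, at 3.36 times sham (log2 ratio 1.75, interval 1.67 to 1.83). The share of neutrophils with an *Mmp8* UMI was 55.2%, 54.8%, 74.4%, 46.9% and 76.0% in time order, and after all cells were reduced to 2000 UMIs it was 50.3%, 44.6%, 50%, 41.2% and 78.9%. The excess at day 28 was thus also present at equal depth. Cells with 10 or more *Mmp8* UMIs made up 3.06%, 3.99%, 34.9%, 3.18% and 19.3% of neutrophils, highest in the deeply sequenced cells of day 7 and next at day 28, where the median depth was lowest (2203 UMIs). *Mmp9* was not higher at day 28 than in sham, and the *Mmp8* UMIs per *Mmp9* UMI in neutrophils were 0.538, 0.602, 1.41, 0.442 and 1.99. The day 7 value rests on 86 cells whose median depth (8251.5 UMIs) lay above the 2203 to 3394.5 UMIs of the other libraries. With the UMI floor of that library set in all, the log2 ratio of *Mmp8* to sham was -0.69, -0.51 and 0.57 at days 3, 7 and 14, and day 28 gave no value. As means of the per-cell CPM, *Mmp8* was at 596, 492, 1405, 492 and 2277 CPM, so that day 7 also lay above sham by this measure.

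*Adam8*, a protease with a disintegrin domain carried on the surface of leukocytes, was at 372, 359, 186, 380 and 313 CPM in neutrophils in time order, and the day 7 library was the low one. Its levels in mature dendritic cells (225, 139, 163, 212 and 143 CPM) were below the neutrophil level of the same library in all 5. C1q macrophages held 118, 89.6, 86.8, 101 and 180 CPM, whereas AMs held 2.65 to 10.3 CPM, which lay above the B cells in 0 of 5 libraries.

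These differences between cell types were tested with edgeR's quasi-likelihood test on the summed UMIs, with the libraries as the units and as a block. The block takes out what both cell types of a library share. The error is thus the spread of their difference over the libraries, and no time point has a second library. Neutrophils were compared in 5 libraries with all macrophages, which are AMs, C1q macrophages and cells with the markers of both. *Mmp9* was higher in neutrophils by 9.87 on the log2 scale (SE 0.47, adjusted p = 3.9e-06), with mean levels of 1090 and 1.82 CPM. *Mmp8* was higher by 4.97 (SE 0.36, adjusted p = 3.56e-05, means 1016 and 43.8 CPM) and *Adam8* by 3.39 (SE 0.74, adjusted p = 0.00477, means 322 and 56.0 CPM). *Timp3* also passed, with a log2 difference of 2.15 (adjusted p = 0.00267), but its means were 5.33 and 1.76 CPM and neither cell type lay above the B cells in any library. *Mmp12* (-1.94, adjusted p = 0.0196), *Mmp14* (-1.93, adjusted p = 0.00239) and *Mmp19* (-2.32, adjusted p = 0.000466) were lower in neutrophils. *Timp1* (-0.86, adjusted p = 0.112) and *Timp2* (0.13, adjusted p = 0.871) did not pass. In all, 4 members were higher and 3 lower, against 26.1% of all genes tested that were higher and 29.2% that were lower. The fit's scaling put the median over all genes at -0.21, and *Timp2*, with mean CPM of 207 in neutrophils and 382 in macrophages, had a fitted difference near 0. With the UMI floor of the day 7 library set in all libraries the calls of *Mmp14* (adjusted p = 0.073) and *Timp3* (adjusted p = 0.285) were lost, and that of *Mmp12* was lost without the day 14 library (adjusted p = 0.065). Without the library block those of *Mmp12* (0.735) and *Mmp14* (0.113) were lost.

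**Figure D2:**
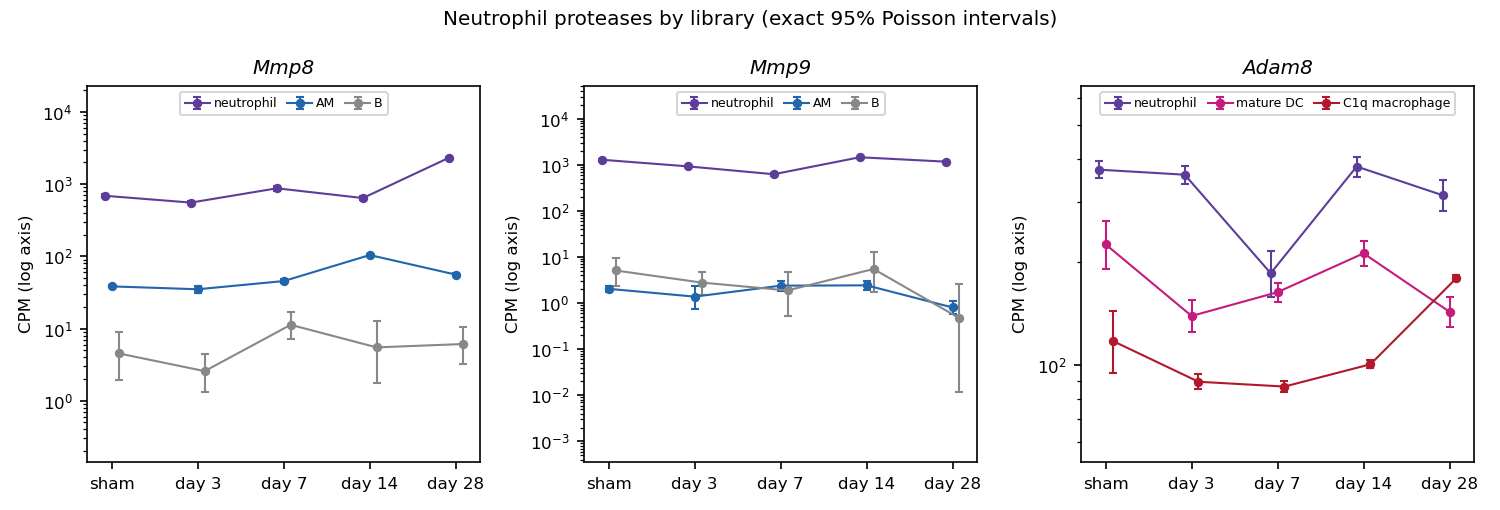
CPM of *Mmp8*, *Mmp9* and *Adam8* by library in neutrophils and, for comparison, in AMs and B cells or, for *Adam8*, mature dendritic cells and C1q macrophages, on a log axis. Points are summed levels and bars are exact 95% Poisson intervals (counting error only). Neutrophil *Mmp8* lies between 555 and 876 CPM in the first 4 libraries and at 2318 CPM at day 28, while *Mmp9* stays between 622 and 1453 CPM.

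*Mmp12*, the macrophage elastase, ranged widely over the libraries in C1q macrophages. It was at 721 CPM in sham (interval 664 to 783), 74.5 CPM at day 3 (70.6 to 78.6), 297 CPM at day 7 (291 to 302), 1542 CPM at day 14 (1531 to 1553) and 3238 CPM at day 28 (3222 to 3253). Day 3 was lowest, and from there each later library lay above the one before it. Relative to sham, the log2 ratios were -3.28, -1.28, 1.10 and 2.17. The sham gate held 52 cells, and 228 of its 575 *Mmp12* UMIs came from 1 cell, without which the level was 470 CPM. At day 3 a single cell held 428 of 1341 UMIs, and the level without it was 50.9 CPM.

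The spread between cells was wide within a library. The share of C1q macrophages with an *Mmp12* UMI was 30.8%, 9.02%, 33.5%, 78.1% and 90.1% in time order, and 30.0%, 3.5%, 17.0%, 42.4% and 72.4% at 2000 UMIs per cell. The median cell had 0 UMIs in sham and at days 3 and 7, 3 UMIs at day 14 and 32 UMIs at day 28. Cells with 10 or more UMIs made up 17.3%, 1.80%, 11.3%, 39.1% and 66.6% of the gate. The depth-matched shares thus had the same order over the 5 libraries as the levels, with sham between days 7 and 14.

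**Figure D3:**
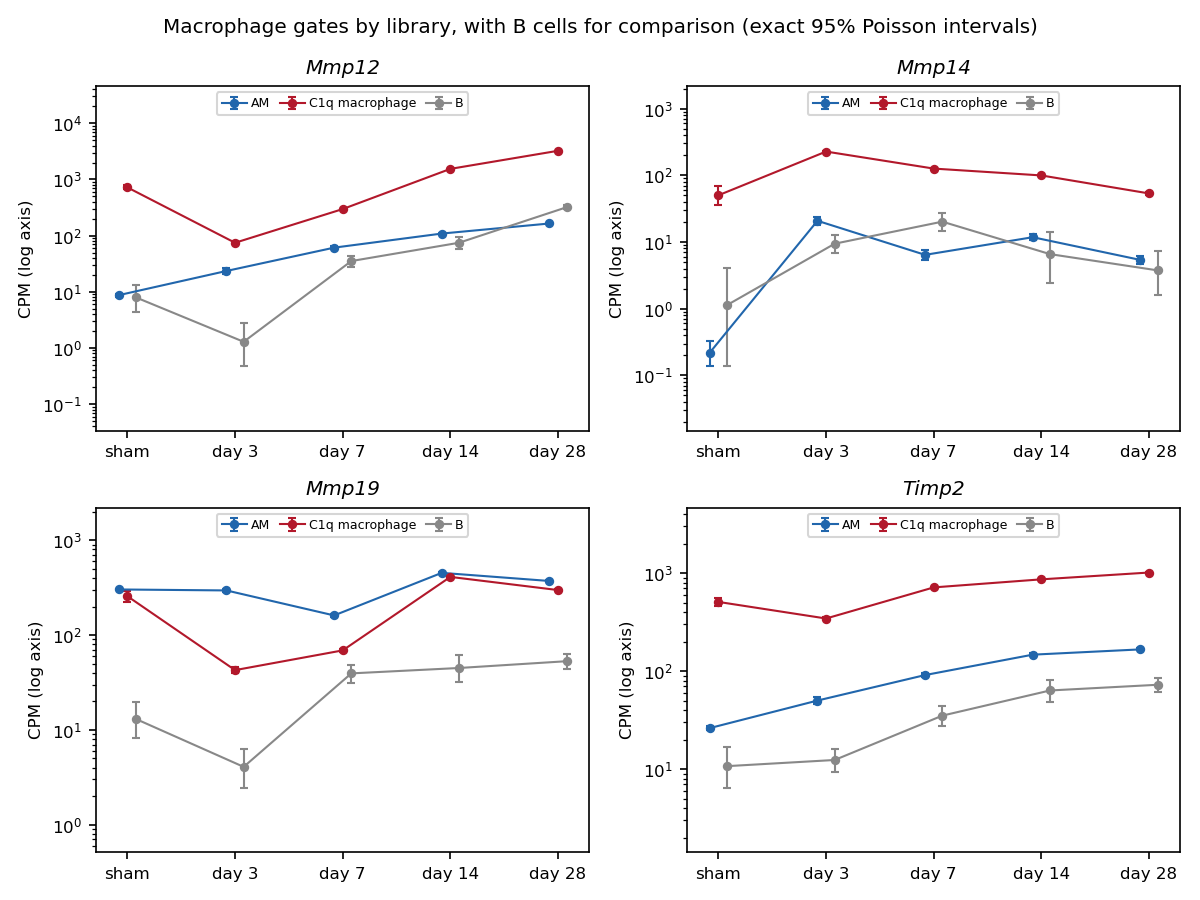
CPM of *Mmp12*, *Mmp14*, *Mmp19* and *Timp2* by library in AMs, C1q macrophages and B cells, on a log axis with exact 95% Poisson intervals. *Mmp12* in C1q macrophages goes from 74.5 CPM at day 3 to 3238 CPM at day 28, and in AMs it goes from 8.70 to 164 CPM, with the B cells at 320 CPM at day 28.

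AMs carried *Mmp12* at 8.70 CPM in sham and at 23.4, 61.0, 109 and 164 CPM in the bleomycin libraries, which would be 18.9 times sham at day 28. B cells of the same libraries held 7.92, 1.28, 35.2, 74.5 and 320 CPM, and T cells held 2.22, 2.52, 81.5, 91.3 and 204 CPM. By interval and share AMs lay above the B cells in 2 of 5 libraries, days 3 and 7. At 2000 UMIs the share of AMs with an *Mmp12* UMI was 13.9% at day 28, against 22.0% of B cells and 23.5% of T cells. By this rule the AM level at day 28 was thus not above background. The rule is relative to depth, and the median depth there was 18674 UMIs in AMs and 3258 UMIs in B cells. Before cells were reduced to 2000 UMIs, 58.8% of AMs and 39.4% of B cells had an *Mmp12* UMI at day 28. The part of free RNA in the AM level was not tested. The *Mmp12* UMIs per UMI of the 3 C1q genes at day 28 were 0.472 in C1q macrophages, 2.47 in AMs, 1.84 in B cells and 1.04 in T cells, but the other gates hold few C1q UMIs by their definition. Neutrophils reached 1196 CPM at day 28, but 940 of 1318 UMIs there came from 1 cell, and without it the level was 348 CPM. By interval and share, neutrophils lay above the B cells in 2 of 5 libraries, days 14 (140 CPM) and 28. The day 28 interval includes that cell. B cells held 320 CPM there (interval 296 to 345), and no interval was made for neutrophils without the cell. The median depths of neutrophils and B cells were 2748 and 5296 UMIs at day 14, and 2203 and 3258 UMIs at day 28. Before cells were reduced to 2000 UMIs, fewer neutrophils than B cells had an *Mmp12* UMI (34.2% and 37.7% at day 14, 35.4% and 39.4% at day 28). The part of free RNA in the neutrophil levels was not tested.

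Between the 2 macrophage gates, tested in 5 libraries, *Mmp12* was higher in C1q macrophages by 3.79 (edgeR, SE 0.72, adjusted p = 0.00581). Cells with both marker sets (double-marker macrophages) were compared with AMs at days 7, 14 and 28, where they numbered 102, 151 and 177. They held *Mmp12* at 191, 441 and 1663 CPM, above AMs in all 3 libraries (log2 difference 2.42, SE 0.27, adjusted p = 0.000401). By a doublet score (Scrublet), 63, 35 and 90 of these cells were marked. Without the marked cells *Mmp12* was higher than in AMs (1.77, adjusted p = 0.016), as were *Mmp14* (2.22), *Adam8* (2.56) and *Timp2* (1.17). The double-marker cells had median depths of 31105, 34343 and 32933 UMIs. Those of AMs were 17597.5, 23974 and 18674 UMIs, and those of C1q macrophages 15343, 25788 and 22106 UMIs. Since the gate requires C1q markers, doublets of an AM and a C1q macrophage would also lie above AMs. These tests cannot tell such doublets from single cells. Classical monocytes (*Ly6c2*, *Ccr2*), from which macrophages of the injured lung can arise, were compared with C1q macrophages in the 4 libraries with enough cells, and *Mmp12* was lower in monocytes by 4.61 on the log2 scale (SE 0.62, adjusted p = 0.00726).

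*Mmp14*, which sits on the cell surface and activates pro-MMP2, was at 50.2 CPM in sham C1q macrophages (40 UMIs, interval 35.8 to 68.3) and at 227, 126, 99.6 and 53.5 CPM at days 3, 7, 14 and 28. Day 3 was the high library, at a log2 ratio of 2.18 to sham (1.73 to 2.67), and the interval of day 28 spanned sham (0.09, -0.36 to 0.58). *Mmp12* was lowest in the library where *Mmp14* was highest. The share of C1q macrophages with an *Mmp14* UMI was 15.4%, 82.5%, 72.4%, 79.97% and 58.5%. Classical monocytes held 0.871 CPM in sham (1 UMI) and 149 CPM at day 3 (1775 UMIs), then 65.3 CPM at day 7 and 4.17 CPM at day 14 (1 UMI in 26 cells). Fibroblasts carried 62.4, 160, 137, 256 and 174 CPM, and AMs 0.219, 20.8, 6.41, 11.8 and 5.38 CPM. B cells held 1.13, 9.42, 20.2, 6.58 and 3.75 CPM, and AMs lay above them at day 3 only. *Mmp14* was higher in C1q macrophages than in AMs by 4.17 (SE 0.59, adjusted p = 0.0018) and in double-marker macrophages by 2.49 (SE 0.21, adjusted p = 9.45e-05). Its difference between monocytes and C1q macrophages was -1.64 (adjusted p = 0.11), and DESeq2 called it (-2.50, adjusted p = 0.020).

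*Mmp19*, a secreted protease that cuts basement membrane proteins, was carried by AMs in every library. It was at 303, 296, 161, 454 and 372 CPM in AMs, in 74.0% to 95.03% of the cells, with B cells at 4.07 to 53.0 CPM and lower in every library. Day 7 was the low library and day 14 the high one. C1q macrophages held 257, 42.7, 68.9, 411 and 299 CPM, so their days 3 and 7 were far below the AMs, whereas days 14 and 28 and sham were close to them. The C1q level was below the AM level in 5 of 5 libraries, but the difference did not pass (-0.77, SE 0.41, adjusted p = 0.179). Double-marker macrophages held 109, 518 and 349 CPM at days 7, 14 and 28 and did not differ from AMs past the threshold (-0.07, adjusted p = 0.761).

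The C1q macrophage comparison with AMs called 5 members higher and 1 lower, against 19.1% of all genes higher and 20.3% lower. Besides *Mmp12* and *Mmp14*, *Adam8* was higher in C1q macrophages by 4.22 (SE 0.35, adjusted p = 0.00022), *Timp2* by 3.15 (SE 0.26, adjusted p = 0.000214) and *Timp1* by 1.84 (SE 0.55, adjusted p = 0.0344). *Mmp8* was lower by 0.70 on the log2 scale (SE 0.23, adjusted p = 0.0459). AMs held *Mmp8* at 38.3, 35.0, 45.5, 104 and 55.9 CPM, above B cells (2.57 to 11.3 CPM) in all 5 libraries, and C1q macrophages at 11.3, 37.6, 28.3, 38.9 and 30.7 CPM. The *Mmp8* and *Timp1* calls were the least firm. That of *Mmp8* was lost without sham (adjusted p = 0.066), day 7 (0.101), day 14 (0.154) or day 28 (0.097), and that of *Timp1* without the same libraries (0.069, 0.109, 0.109 and 0.066). The *Mmp8* call was also lost without Scrublet doublets (0.090) or the library block (0.171), and that of *Timp1* with stricter gates (0.057). *Mmp9* (0.73, adjusted p = 0.358) and *Timp3* (0.30, adjusted p = 0.34) did not pass. In double-marker macrophages 4 members were higher than in AMs and none lower, against 8.16% and 5.56% of all genes; the other 2 were *Adam8* (2.84, adjusted p = 0.000102) and *Timp2* (1.57, adjusted p = 5.79e-05). In monocytes none was higher and 2 were lower than in C1q macrophages, against 4.00% and 3.14%, the other one being *Timp2* (-2.88, adjusted p = 0.00725).

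All 3 inhibitors had their highest median level in fibroblasts, and C1q macrophages also carried *Timp2*. *Timp1*, the inducible inhibitor, was at 666 CPM in sham fibroblasts (591 to 748), 3821 CPM at day 3 (3701 to 3944), 1532 CPM at day 7 (1465 to 1601), 315 CPM at day 14 (264 to 374) and 908 CPM at day 28 (826 to 996). Day 3 was highest, at 5.74 times sham, and day 14 lowest, at 0.47 times sham. As means of the per-cell CPM, the levels were 675, 2440, 1249, 407 and 480 CPM, with day 3 still highest and day 14 lowest but day 28 below sham. The share of fibroblasts with a *Timp1* UMI was 71.1%, 79.7%, 89.0%, 68.4% and 54.7%. The median cell carried 3, 10.5, 7.5, 1 and 1 UMIs, and the cell richest in *Timp1* held 26.7%, 17.1%, 28.0%, 12.1% and 26.2% of the UMIs. No other gate came close, since endothelial cells held 15.4 to 82.3 CPM and C1q macrophages 9.15 to 40.1 CPM.

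*Timp3*, the inhibitor that binds to the matrix, went the other way in fibroblasts at the early times, at 2731 CPM in sham and 1461, 986, 2668 and 1377 CPM at days 3, 7, 14 and 28. Sham and day 14 were the high libraries, so the *Timp1* UMIs per *Timp3* UMI were 0.244, 2.62, 1.55, 0.118 and 0.660. The gate held 38 to 100 cells, and which fibroblast types each library held was not tested. Endothelial cells carried *Timp3* at 388 CPM in sham (14 UMIs, 78.6% in 1 cell) and at 707, 889, 1137 and 2853 CPM afterwards. At day 7, 56.7% of the 289 UMIs came from 1 cell. As means of the per-cell CPM, the endothelial levels were 243, 873, 1526, 1034 and 2979 CPM, with day 14 below day 7. Median endothelial depth was 9864.5 UMIs at day 7, but 1384 and 1213 UMIs at days 14 and 28. Epithelial cells carried *Timp3* at 64.7, 100, 376 and 455 CPM in sham and at days 7, 14 and 28. Macrophages held 0 to 4.22 CPM and lay above the B cells in 0 of 5 libraries.

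*Timp2*, the inhibitor that also takes part in MMP2 activation by MMP14, was at 2040, 1396, 2416, 1785 and 2465 CPM in fibroblasts, within a 2-fold range. C1q macrophages held 509, 345, 716, 866 and 1016 CPM, in 79.5% to 99.1% of the cells. Day 3 was again the low library, and cells with 10 or more UMIs made up 23.1%, 17.6%, 42.4%, 76.1% and 71.8%. AMs held 26.3, 50.2, 91.3, 148 and 167 CPM, each above the B cells (10.7, 12.4, 35.2, 63.6 and 72.7 CPM), with the AM level at day 28 at 6.35 times sham (log2 2.67, 2.60 to 2.73). The B cell level was also higher in each later library, and the part of free RNA in the AM values was not tested. Endothelial cells held 409 to 619 CPM and neutrophils 170, 213, 226, 216 and 208 CPM. *Mmp12* UMIs per *Timp2* UMI in C1q macrophages were 1.42, 0.216, 0.414, 1.78 and 3.19, and *Mmp14* UMIs per *Timp2* UMI were 0.0985, 0.658, 0.176, 0.115 and 0.0526.

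**Figure D4:**
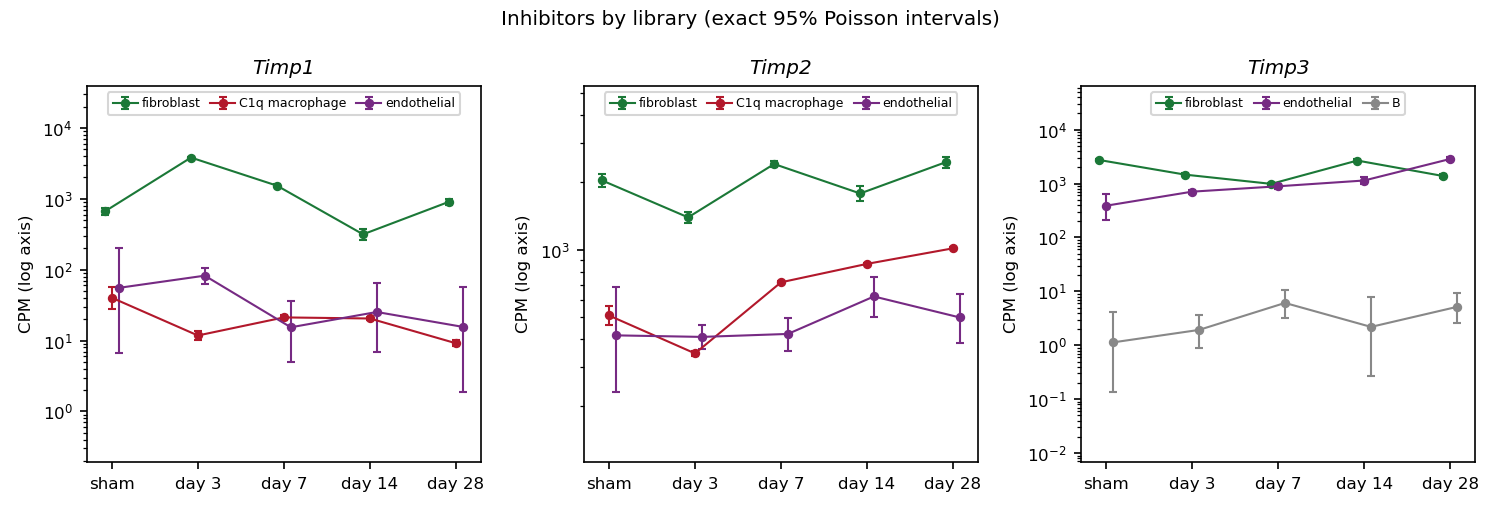
CPM of *Timp1*, *Timp2* and *Timp3* by library in fibroblasts and endothelial cells, with C1q macrophages or, for *Timp3*, B cells, on a log axis with exact 95% Poisson intervals. Fibroblast *Timp1* is highest at day 3 (3821 CPM), where *Timp3* is at 1461 CPM against 2731 CPM in sham.

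Fibroblasts were compared with all macrophages in 5 libraries. *Timp3* was higher by 9.98 (SE 0.73, adjusted p = 5.29e-06), *Timp1* by 6.69 (SE 0.62, adjusted p = 2.01e-05) and *Timp2* by 2.52 (SE 0.60, adjusted p = 0.00714). *Mmp9* also passed (2.49, adjusted p = 0.00305) with means of 12.7 and 1.82 CPM from the few UMIs described above. *Mmp12* (-3.88, adjusted p = 0.000184), *Mmp19* (-1.72, adjusted p = 0.00165) and *Adam8* (-3.31, adjusted p = 0.000171) were lower in fibroblasts, although *Mmp19* reached 218 CPM there at day 28. *Mmp14* was at 1.79 (SE 0.74, adjusted p = 0.0761); without the sham library, or with DESeq2, it passed (adjusted p = 0.024 and 0.026). The call of *Mmp12* was lost without the library block (adjusted p = 0.065). The 4 members higher and 3 lower stand beside 22.5% and 23.9% of all genes.

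Within the dendritic cells, which carry antigen to lymph nodes, mature cells (*Ccr7*, *Fscn1*) were compared with conventional cells (*Flt3*, *Xcr1*). *Adam8* was higher in mature cells in 5 libraries (log2 difference 1.02, SE 0.15, adjusted p = 0.000128), with means of 177 and 101 CPM. *Timp3* passed as well (1.35, adjusted p = 0.00667), at levels under 10 CPM that did not lie above the B cells. *Mmp12* (-1.38, adjusted p = 0.00998), *Mmp19* (-0.90, adjusted p = 0.0254) and *Timp2* (-0.73, adjusted p = 0.0257) were lower. The call of *Mmp12* was lost without day 7 (adjusted p = 0.060), that of *Timp2* without day 14 (0.085), and that of *Mmp19* without sham (0.050) or day 3 (0.053). Stricter gates ended those of *Mmp19* (0.633) and *Timp2* (0.150), and without the library block *Adam8* was the only call. Without day 7 the test called 3 members. *Mmp8*, *Mmp9* and *Timp1* had too few UMIs to be tested. The 2 members higher and 3 lower stand beside 28.2% and 28.7% of all genes.

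**Figure D5:**
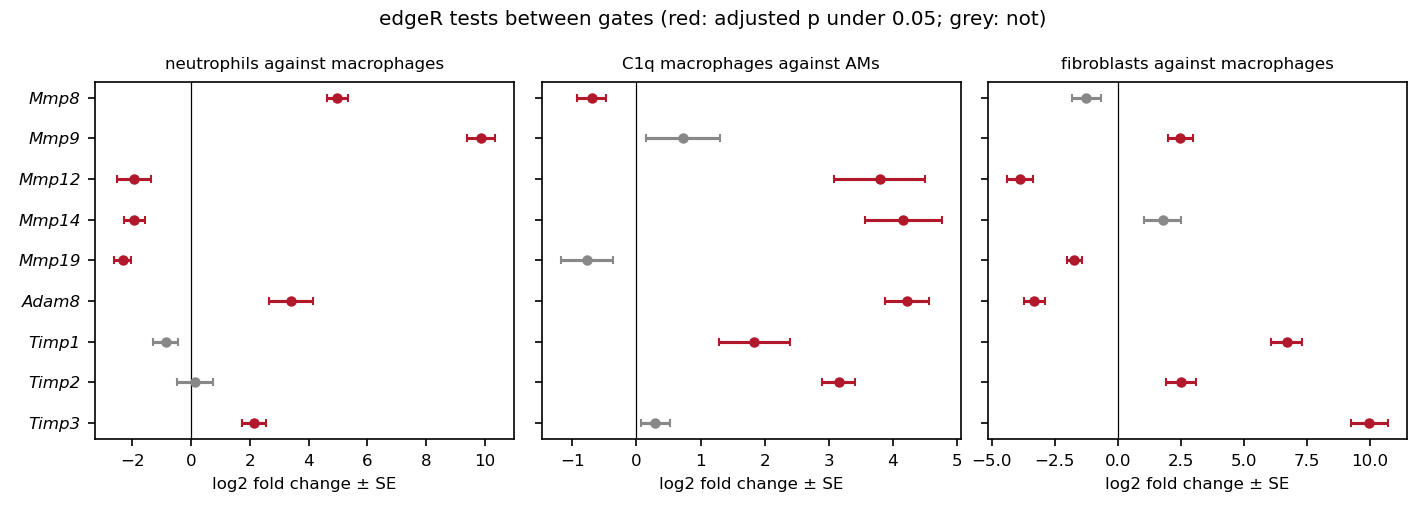
Fitted log2 differences of the members (x axis, bars of 1 SE) for neutrophils against macrophages, C1q macrophages against AMs and fibroblasts against macrophages, in red where the adjusted p was under 0.05 and in grey where not. *Mmp9* in neutrophils (9.87) and *Timp3* in fibroblasts (9.98) lie farthest to the right, and *Mmp12* in fibroblasts (-3.88) farthest to the left.

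To set the members beside all genes, values past 2-fold of sham were counted among all genes that reached 10 CPM in sham or on the day compared. A gene under 10 CPM in sham enters only through the day compared, and such a gene cannot be counted as lower. In C1q macrophages 8 members qualified. At day 3, 2 were higher and 4 lower, at day 7 2 and 3, at day 14 2 and 1, and at day 28 2 and 2, while 21.1%, 10.3%, 14.8% and 19.8% of all genes were past 2-fold in either direction. These counts rest on the 52 cells of the sham gate, and *Mmp9* was among the lower members on 19 sham UMIs. In AMs 4 of 7, 2 of 4, 4 of 5 and 2 of 4 members were higher at days 3, 7, 14 and 28 and none was lower, against 8.67%, 4.26%, 6.84% and 7.13% of all genes. *Mmp12* was among the higher members at each of these times, at levels that lay above the B cells in 2 of 5 libraries, days 3 and 7. *Adam8* was among them at day 3, although its AM level lay above the B cells in 0 of 5 libraries. *Mmp14* was among them at days 3 and 14, but lay above the B cells at day 3 only. The other AM values counted as higher lay above the B cells of their library. All 4 AM members higher at day 3 were under 10 CPM in sham (*Mmp12* 8.70, *Mmp14* 0.219, *Adam8* 2.65 and *Timp1* 2.83 CPM). They entered only through the day compared, as did *Mmp12* at days 7, 14 and 28 and *Mmp14* at day 14. These values could not have been counted as lower. In neutrophils 1 of 6, 4 of 8, 2 of 6 and 4 of 7 were higher, 2 of 8 were lower at day 7 (*Mmp9* and *Adam8*), and 10.9%, 47.4%, 9.81% and 15.3% of all genes were past 2-fold. *Mmp12*, *Mmp14*, *Timp1* and *Timp3* were under 10 CPM in sham neutrophils, so they too entered only through the day compared and could not be counted as lower. Of the 11 neutrophil values counted as higher, that of *Mmp8* at day 28 was the only one for a gene that lay above the B cells in every library. With the UMI floor of the day 7 library set in all libraries, 6 values were higher and 0 lower.

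The source of a member in the suspension differed between libraries. C1q macrophages held 25.1%, 59.5%, 47.9%, 76.7% and 72.5% of all *Mmp12* UMIs, and AMs 38.1%, 9.8%, 6.7%, 3.3% and 3.4%. For *Timp2* the C1q share was 7.1%, 41.9%, 56.6%, 71.9% and 68.7%, and the AM share was 46.2%, 3.19%, 4.88%, 7.52% and 10.4%, lowest at day 3. Neutrophils held 84.6%, 84.1%, 36.4%, 83.1% and 78.3% of *Mmp9* UMIs. The day 7 library had no barcode under 4624 UMIs, which is above the median neutrophil depth of the other libraries (2203 to 3394.5 UMIs). Its lower neutrophil share cannot be told apart from this limit. Fibroblasts, which were few, held 42.4%, 79.0%, 41.5%, 7.1% and 31.4% of *Timp1* UMIs and 80.6%, 61.1%, 31.7%, 31.5% and 25.2% of *Timp3* UMIs. For *Mmp19* the AM share was 91.8% in sham and 48.7%, 38.7%, 30.1% and 34.2% afterwards, while AMs held 79.7%, 10.7%, 16.8%, 23.7% and 30.3% of all UMIs. Summed over all cells, *Mmp12* was at 18.2, 25.7, 153, 778 and 1479 CPM, *Mmp14* at 1.93, 99.6, 63.1, 56.8 and 26.7 CPM and *Timp1* at 5.41, 55.0, 32.9, 14.4 and 9.18 CPM. In such sums more cells of a type and more transcript per cell cannot be told apart.

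AMs with an RFP UMI, taken as the reporter, were compared with AMs without one. The share with a UMI was 74.0%, 69.2%, 60.6%, 93.8% and 71.7%, but at 2000 UMIs per cell it was 18.8%, 22.1%, 14.2%, 36.1% and 28.2%, against 12.7%, 9.45%, 13.4%, 25.6% and 15.3% in B cells, which the reporter should not label. Of the members only *Mmp19* passed, higher in reporter-positive AMs by 0.26 (SE 0.05, adjusted p = 0.03), and none was lower, against 0.426% and 0.0533% of all genes. Other settings called 0 to 6 members, and the call of *Mmp19* was lost when the classes were made at 2000 UMIs (adjusted p = 0.996) or without sham, day 3 or day 28 (0.056, 0.125 and 0.076).

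A list of 43 further metalloproteinases, plasminogen activators, inhibitors and binding partners was followed in the same tests. In neutrophils 7 of 23 tested were higher than in macrophages and 8 lower, against 26.1% and 29.2% of all genes. *Lcn2*, which binds MMP9, was higher by 9.82 (adjusted p = 3.17e-06), the membrane-type *Mmp25* by 5.62 (adjusted p = 0.000213) and the MMP inhibitor *Reck* by 5.80 (adjusted p = 8.45e-05), whereas *Plau*, the urokinase gene, was at -2.10 (adjusted p = 0.00141). In C1q macrophages 9 of 25 were higher than in AMs and 3 lower (all genes 19.1% and 20.3%), with *Serpinb2*, a urokinase inhibitor, at 7.37 (adjusted p = 0.000524) and *Plau* at 2.90. In fibroblasts 5 of 32 were lower and 18 higher (all genes 23.9% and 22.5%), the latter with stromelysin *Mmp3* at 11.32 (adjusted p = 2.61e-06) and gelatinase *Mmp2* at 7.38 (adjusted p = 5.89e-05). The list's median difference was 2.39 in fibroblasts against -0.09 over all genes, -0.39 against -0.21 in neutrophils and 0.36 against -0.01 in C1q macrophages. Double-marker macrophages had 5 of 16 higher and 4 lower, against 8.16% and 5.56% of all genes, and monocytes 2 of 17 and 2, against 4.00% and 3.14%. Mature dendritic cells had 3 of 13 higher and 3 lower, against 28.2% and 28.7%, and reporter-positive AMs 0 of 16 in either direction, against 0.426% and 0.0533%. In mature dendritic cells *Mmp25* was higher by 4.37 (adjusted p = 6.68e-09).

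Over 70 sums of gate and library, the genes whose log2(CPM + 1) correlated best with each member were ranked among 12329 genes, as a description in which the sums share libraries and cell types. *Timp3* was nearest to *Sparc* (r = 0.96), *Nfib* (0.95) and *Nr2f2* (0.95), and *Timp1* to *Ltbp1* (0.85). *Mmp19* was nearest to lipoprotein lipase *Lpl* (0.89), *Axl* (0.83) and osteopontin *Spp1* (0.83), and *Spp1* was also among the nearest to *Mmp12* (0.80), after the gate markers *C1qa* and *C1qb*. *Mmp9* was nearest to *Il1f9* (0.88), *Mmp8* to *C5ar2* (0.80), *Mmp14* to *Procr* (0.80), *Timp2* to *Ecm1* (0.81) and *Adam8* to 6430531B16Rik (0.78).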

How the data were processed

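Lungs were perfused and digested, red cells were lysed, and the suspension was run on the 10x 3′ v3.1 kit. The authors deposited raw UMI counts per gene and barcode for each library, made with Cell Ranger 6.0.0 against mm10 per the labels (the matrix headers name 3.1.0). These counts were used as deposited. The study's limits were applied to the barcodes: at least 300 and at most 8000 genes, at least 800 and at most 60000 UMIs, and a mitochondrial share below 15%. The study also removed doublets, whereas here cells in more than 1 gate (2115, 4.72%) were left out and Scrublet was an alternative. The 455 cells with the markers of both AMs and C1q macrophages are not among these and were kept as double-marker macrophages. Depth per library is given above. Cells were gated on listed markers, none of them a member: a cell needed a minimum number of a gate's marker genes and at least 5 marker UMIs per 10000 UMIs (100 for neutrophils), which is a rebuilt naming and not the study's clusters. For levels, the counts were summed per gate and library (at least 20 cells), divided by the sum of all genes and given as CPM, with exact 95% Poisson intervals; shares were compared after each cell had been reduced to 2000 UMIs. Tests between gates used edgeR 4.0.16 (TMM, filterByExpr, quasi-likelihood test, two-sided) with library as a block and Benjamini-Hochberg adjustment over all genes. The scripts were tested on simulated data. The study names a test across cells, which was not used since cells are no replicates. Alternatives were a 10% mitochondrial limit, doublet removal, stricter gates, the day 7 UMI floor, DESeq2 1.42.0, no low-count filter, no block, leaving out each library, reduced depth and per-cell means; a limit of 3 RFP UMIs and the sums without the cell richest in *Mmp12* were chosen after seeing the data. All members were named, of the further list examples at 50 CPM or more in a gate (1 gene is not reported here), and the 3 genes most alike. The members and lists were chosen with earlier results of these data known.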

Additional observations from a re-analysis of the deposited data

How the results depend on the processing

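Of the 32 calls of members between gates, 17 passed under every alternative run and 15 were lost under at least 1, and no called member changed its direction. Without the library block the called members fell to 1 for double-marker macrophages (from 4), to 1 for monocytes (from 2), to 1 for mature dendritic cells (from 5) and to 0 for the reporter (from 1). For monocytes DESeq2 called 4 and the fit with no low-count filter 6. Stricter gates left 3 calls in dendritic cells and gave 6 for the reporter, where the 10% mitochondrial limit gave 2, no low-count filter 6 and reduced depth 0. Leaving out each library in turn gave 6 to 7 calls for neutrophils, 4 to 6 for C1q macrophages, 4 to 5 for double-marker macrophages, 2 to 3 for monocytes, 7 to 8 for fibroblasts, 3 to 5 for dendritic cells (3 without day 7) and 0 to 1 for the reporter (0 without sham). The neutrophil values past 2-fold of sham were 6 higher with the day 7 UMI floor (from 11), and those lower were 0 with that floor, with stricter gates and with per-cell means (from 2). Differences that had not passed and changed sign (log2) were, for neutrophils, *Timp2* (-0.28 without the block, and -0.51 to 0.50 with a library left out), for double-marker macrophages *Mmp9* (0.065 at the 10% limit, 0.027 without Scrublet doublets, and -0.17 to 0.28 with a library left out), *Mmp19* (0.16 without Scrublet doublets, 0.044 without the block, and -0.24 to 0.11) and *Timp1* (-0.40 with stricter gates), for monocytes *Timp3* (-0.0092 without the block), *Mmp9* (-1.21 to 0.36) and *Timp1* (-1.06 to 0.36), and for the reporter *Timp3* (0.37 with stricter gates), *Timp2* (-0.010 to 0.14) and *Mmp8* (-0.14 at reduced depth). The cause of these changes was not tested. The comparisons between gates were paired by library through the block, whereas time points, with 1 library each, could not be paired. Levels in gates of few cells, C1q macrophages in sham, neutrophils at day 7 and fibroblasts throughout, limit what the counts can show.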

Other observations

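Some transcripts of the members were in cells that fell into no gate or into more than 1. These cells entered no comparison, and the double-marker macrophages are not counted among them. Cells in more than 1 gate held 44.3% of the *Mmp9* UMIs of the day 7 library, against 6.22% to 8.08% in the other libraries, and 32.5% of its *Timp3* UMIs, against 5.62% to 9.62%. Of all UMIs these cells held 12.8% at day 7 and 2.76% to 5.85% in the other libraries. For *Timp1* they held 19.9% at day 7 and 3.06% to 7.96% elsewhere. Cells in no gate held 18.8%, 23.6%, 23.3%, 11.0% and 16.4% of *Mmp12* UMIs in sham and at days 3, 7, 14 and 28. For *Mmp19* the same cells held 3.67% in sham and 28.7% at day 28, where they held 3.62% and 18.7% of all UMIs. The types of these cells were not determined here.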
